A study of Homo sapiens with 4 samples.

Results

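The respiratory chain subunits that nuclear genes encode were examined in 2 human glioblastoma cell lines, U251 and U87, with and without Bru (brusatol, a quassinoid from the seeds of Brucea plants). RNA was sequenced from cells not given Bru, called Control, and from cells given Bru at its half-inhibitory concentration for 48 h. There was 1 library for each line and condition and 4 libraries in all. Control cells are also called untreated here, meaning without Bru. The labels do not say whether they were given DMSO, which the paper used as the control in other assays. The labels name no genetic change in either line and no other agent, and both lines are long-cultured tumor lines grown without other cell types. They also give no dose of Bru. In its time course of cell viability the paper used a higher dose in U251 than in U87. Where the response of the lines differs, line and dose cannot be told apart. Members were the protein-coding genes whose symbols start with NDUF and a letter A, B, C, S or V (complex I), SDHA to SDHD (complex II), the 8 UQCR symbols of complex III, COX4 to COX8 (complex IV) and ATP5 (complex V). This naming rule found 86 of the 58735 genes in the deposited files, with 37 genes in complex I, 4 in complex II, 8 in complex III, 17 in complex IV and 20 in complex V. Of these, 77 averaged 1 FPKM or more in the 4 libraries and entered the counts and medians, with 35, 4, 8, 11 and 19 genes in the same order.

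The respiratory chain sits in the inner mitochondrial membrane. Complexes I and II pass electrons from NADH and succinate to coenzyme Q, complex III passes them to cytochrome c, complex IV passes them to oxygen, and complex V uses the proton gradient that complexes I, III and IV build to make ATP. All but complex II mix subunits from nuclear genes with subunits encoded by mitochondrial DNA, so that RNA from both genomes is needed for a whole complex. Nuclear subunit genes are known to share promoter elements, among them sites for NRF1 (nuclear respiratory factor 1), for GABPA (the DNA-binding part of nuclear respiratory factor 2, an ETS family factor) and for YY1. Nuclear respiratory factor 2 is a different protein from NFE2L2, the antioxidant factor that is also called NRF2.

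FPKM are fragments counted on a gene per kilobase of its exons and scaled to the size of the library. The length was that of all annotated exons together, 9715 bases for UQCRB and 1472 for UQCRQ. In U251 Control, UQCRB held 4165 fragments and read 20.4 FPKM, and UQCRQ held 4621 and read 150 FPKM. Levels of different genes thus also depend on annotated length and compare only roughly. A library held 17083896 to 21453561 fragments on genes, and each tested member had 41 to 20140 of them. VIM and CD44, which glioblastoma lines express, were high in all 4 libraries, but other markers of such lines were not. NES stood at 125 and 50.6 FPKM in U251 Control and U251 Bru, and at 1.46 and 0.569 FPKM in U87 Control and U87 Bru. GFAP was highest in U251 Control, at 2.42 FPKM, and OLIG2 in U87 Bru, at 1.05 FPKM. SOX2 was found at 129 and 91.2 FPKM in U251 Control and U251 Bru, and at 0 and 0.0457 FPKM in U87 Control and U87 Bru. PTPRC, CD68, PECAM1 and EPCAM, markers of blood, endothelial and epithelial cells, stayed at or under 0.506 FPKM. A ratio here is the log2 ratio on FPKM + 0.1, and a positive value means more in Bru. Pairs of levels are given in the order Control and Bru, and pairs of ratios or counts in the order U251 and U87. Its interval is the 95% exact interval of the counting error on the fragments, without the added 0.1. Since each condition had 1 library, no ratio has a replicate check, no p-value was given, and the intervals compare libraries, not conditions. In bulk RNA, fewer cells of a type and less RNA per cell cannot be told apart.

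Promoter sequence was looked at because nuclear subunit genes are known to share promoter elements. Whether the motifs have a part in the Bru ratios was not tested. A RefSeq table of promoters (GRCh38.p14, 250 bases before and 50 bases after each start) held 69 of the 86 members. NDUFB9, ATP5F1B and NDUFS5 were among the 17 that were not matched. Both strands were searched for the NRF1 motif (10 bases, of which 1 may be any base), which the capitals of NDUFB4 and NDUFA12 spell out in the lines that follow, and for CCGGAAG (GABPA), AAGATGGC (YY1) and GGGCGG (SP1). The NRF1 motif was found in 17 of the 69 members (24.6%) and in 6.98% of all 27305 genes of the table, the GABPA motif in 21 members (30.4%) and 12.2% of all genes, and the YY1 motif in 12 members (17.4%) and 3.52% of all genes. At least 1 of these motifs was present in 41 members (59.4%), against 20.0% of all genes. The genes of the table were not filtered by coding type, expression or base content, and the part of this in the difference was not tested. The SP1 motif was common everywhere, in 44 members (63.8%) and 48.3% of all genes. By complex, the NRF1 motif was held by 6 of 31 members of complex I, 2 of 3 of complex II, 4 of 7 of complex III, 1 of 14 of complex IV and 4 of 14 of complex V.

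The stretches printed here are those of the 6 tested members with a NRF1, GABPA or YY1 motif in the 100 bases nearest to the start that lie in no annotated exon. They run 5′ to 3′ on the strand of the gene, and capitals mark the motifs. They show the motifs that these letters find, and no binding was measured.
NDUFB4: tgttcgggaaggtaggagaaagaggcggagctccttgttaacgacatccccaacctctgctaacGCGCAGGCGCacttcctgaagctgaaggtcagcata
NDUFA12: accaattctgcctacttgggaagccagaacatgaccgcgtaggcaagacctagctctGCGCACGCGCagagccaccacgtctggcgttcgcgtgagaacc
NDUFB7: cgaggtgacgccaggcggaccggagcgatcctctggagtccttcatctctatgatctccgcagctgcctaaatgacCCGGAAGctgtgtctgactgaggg
UQCR11: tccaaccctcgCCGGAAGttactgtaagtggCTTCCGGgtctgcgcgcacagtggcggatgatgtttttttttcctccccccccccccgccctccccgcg
COX5B: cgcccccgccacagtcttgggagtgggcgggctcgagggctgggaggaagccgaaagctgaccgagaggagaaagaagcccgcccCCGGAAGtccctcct
ATP5PD: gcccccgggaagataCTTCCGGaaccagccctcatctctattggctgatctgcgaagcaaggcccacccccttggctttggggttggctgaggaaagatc

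These stretches lie at chr3:120596209-120596308 on the + strand for NDUFB4, at chr12:95003771-95003870 on the - strand for NDUFA12, at chr19:14572067-14572166 on the - strand for NDUFB7, at chr19:1605491-1605590 on the - strand for UQCR11, at chr2:97645940-97646039 on the + strand for COX5B and at chr17:75046986-75047085 on the - strand for ATP5PD. In NDUFB4 and NDUFA12 the NRF1 motif begins 63 and 116 bases before the RefSeq start. In UQCR11 the GABPA motif is present on each strand, beginning 117 and 97 bases before the start. The 6 genes were picked by motif from 37 tested members with an exon-free stretch, and not by their ratios. Their log2 ratios ran from 0.03 (NDUFB7, interval -0.06 to 0.12) to 0.57 (NDUFB4) in U251. In U87 they ran from -0.19 (UQCR11, interval -0.36 to -0.02) to 0.32 (NDUFB4). Ratios of members with a motif were not compared with those of members without one. SDHA and ATP5F1C, which hold the NRF1 motif in their windows, were among the members with ratios below 0 in U251.

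In U251, most subunit genes had a higher level in the Bru library than in the Control library. Of the 77 tested members, 63 had a log2 ratio above 0 (47.2% of all 12949 genes tested were above 0), and their median log2 ratio was 0.25, beside -0.03 over all genes tested. The counting interval lay above 0 for 58 members and below 0 for 8 (30.9% and 35.9% of all genes tested). A log2 ratio above 0.5 was found for 19 members and one below -0.5 for 0 members (14.3% and 19.1% of all genes tested). Among the 41 tested members whose exons other genes overlap by under 5%, 9 were above 0.5. None of the 77 reached a log2 ratio of 1 in either direction (3.36% above 1 and 5.44% below -1 of all genes tested). The difference was thus spread over many genes and was modest in each, with the summed FPKM of the 86 genes going from 3991 to 4790, or 1.20-fold.

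In U87, the same genes differed less between Bru and Control. A log2 ratio above 0 was found for 55 of 77 members (42.3% of all genes tested), and the median was 0.11, beside -0.04 over all genes tested. The counting interval lay above 0 for 39 members, below 0 for 9 and spanned 0 for 29 (15.7% and 28.0% of all genes tested lay above and below 0). No member passed 0.5 in either direction (5.75% above 0.5 and 6.46% below -0.5, and 1.92% above 1 and 1.41% below -1, of all genes tested). The summed FPKM went from 4604 to 4871, or 1.06-fold. The members took 0.798% (Control) and 1.01% (Bru) of the fragments in U251, and 1.01% and 1.10% in U87, so that U251 Control stood lowest and U87 Bru highest.

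**Figure D1:**
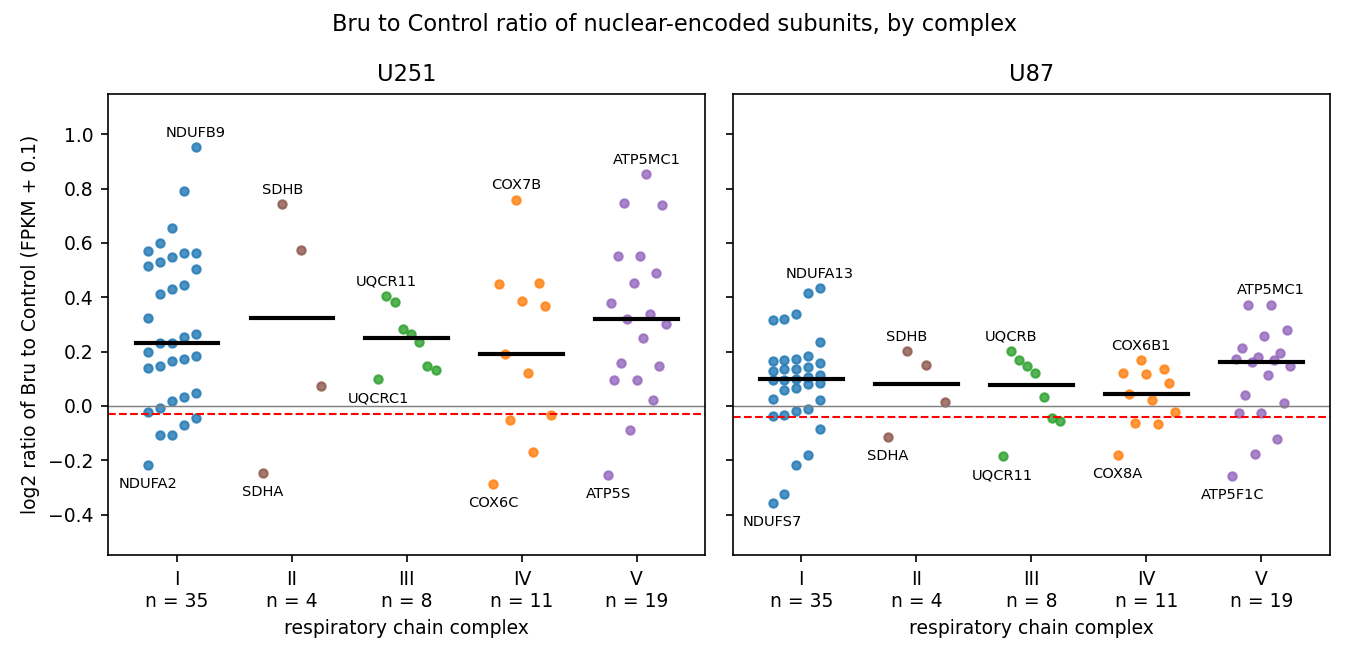
Bru to Control log2 ratio, on FPKM + 0.1 (vertical axis), for the 77 tested subunit genes by complex (horizontal axis), for U251 (left) and U87 (right). Each point is 1 gene, black bars are the medians of a complex, the red dashed line is the median of all genes tested (-0.03 and -0.04), and the highest and lowest genes are named. The medians lie between 0.19 and 0.32 for U251, and all of those for U87 between 0.04 and 0.16.

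Complex I, the largest complex and the entry point for electrons from NADH, had median ratios of 0.23 (U251) and 0.10 (U87) over 35 genes. Intervals lay above 0 for 25 genes and below 0 for 3 in U251 (30.9% and 35.9% of all genes tested). In U87 they did so for 16 and 4 genes (15.7% and 28.0%). The highest ratios of the complex in U251 were those of NDUFB9 and NDUFB10, accessory subunits of the membrane arm, followed by the core subunit NDUFS3. NDUFB9 (chromosome 8, 124539101 to 124580648, + strand, GRCh38) stood at 21.4 (Control) and 41.4 FPKM (Bru) in U251, and at 38.8 and 42.6 FPKM in U87. U251 Control was thus the low library, while the other 3 lay close together. Its log2 ratio was 0.95 (interval 0.87 to 1.04) in U251 and 0.13 (0.06 to 0.21) in U87. Other genes overlap 21.0% of the exon bases of NDUFB9 and 22.4% of those of NDUFS3, and the part of this in their ratios was not tested. NDUFB10 stood at 68.8 and 119 FPKM in U251 and at 54.8 and 60.2 FPKM in U87, and here U251 Bru was the high library, with a log2 ratio of 0.79 (0.70 to 0.89) in U251 and 0.14 (0.01 to 0.26) in U87. Over the 11 NDUFB genes, which build the distal membrane arm, ratios ran from -0.11 to 0.95 in U251 and from -0.08 to 0.32 in U87.

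The 7 conserved core subunits of the peripheral arm carry the flavin and the iron-sulfur clusters or frame the coenzyme Q site, and 6 of them were tested. Their median was 0.21 in U251, with 5 intervals above 0 (30.9% of all genes tested). In U87 it was 0.03, with 3 above and 2 below 0 (15.7% and 28.0%). NDUFS3 stood at 19.7 (Control) and 31.1 FPKM (Bru) in U251, and at 21.3 and 23.5 FPKM in U87, and NDUFS8, an iron-sulfur subunit, at 21.7 and 32.1 FPKM in U251 and at 36.9 and 40.3 FPKM in U87. Their log2 ratios of 0.66 and 0.56 in U251 were the highest of the core, and both were close to 0.13 or 0.14 in U87. NDUFV1, which binds the flavin and takes up electrons from NADH, had ratios of 0.18 (0.11 to 0.26) and 0.10 (0.03 to 0.16). NDUFS1, the largest iron-sulfur subunit, stood at 13.7 FPKM in both U251 libraries and at 13.4 and 11.8 FPKM in U87 Control and U87 Bru, so that its ratio was -0.01 (-0.08 to 0.06) in U251 and -0.18 (-0.26 to -0.11) in U87. The iron-sulfur subunit NDUFS7 had ratios of 0.23 (0.08 to 0.39) and -0.36 (-0.53 to -0.20), the lowest of complex I in U87.

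At the other end of complex I, NDUFA2, an accessory subunit of the peripheral arm, was lower in Bru in both lines. It stood at 34.0 and 29.2 FPKM in U251 and at 38.0 and 32.7 FPKM in U87, with a log2 ratio of -0.22 (-0.35 to -0.09) in each line. NDUFA5, which binds the same arm, went from 8.19 to 7.79 FPKM in U251 and from 9.11 to 10.2 FPKM in U87, and its interval spanned 0 in U251. NDUFA4, counted here by its name but now assigned to complex IV, had ratios of -0.04 (-0.11 to 0.02) and 0.16 (0.09 to 0.23). The highest ratio of complex I in U87 belonged to NDUFA13, at 0.43, but it rested on 41 and 55 fragments and its interval ran from -0.13 to 1.10.

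Complex II, succinate dehydrogenase, is also an enzyme of the tricarboxylic acid cycle and has no mitochondrially encoded subunit. Its catalytic pair moved apart in U251. The iron-sulfur subunit SDHB (chromosome 1, 17018722 to 17054170, - strand) stood at 33.8 (Control) and 56.5 FPKM (Bru) in U251, and at 53.6 and 61.7 FPKM in U87, with log2 ratios of 0.74 (0.66 to 0.83) and 0.20 (0.12 to 0.28). The flavoprotein SDHA (chromosome 5, 218241 to 256700, + strand) stood at 21.1 and 17.7 FPKM in U251 and at 23.5 and 21.7 FPKM in U87, with log2 ratios of -0.25 (-0.32 to -0.18) and -0.12 (-0.19 to -0.05). SDHB was thus higher and SDHA lower in Bru in both lines by their counting intervals. Of the membrane anchors, SDHD had a ratio of 0.57 (0.44 to 0.71) in U251 and 0.01 (-0.13 to 0.16) in U87, and SDHC had 0.07 (-0.02 to 0.16) and 0.15 (0.05 to 0.26). With 4 genes, the median of the complex (0.32 in U251 and 0.08 in U87) describes none of them well.

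By the members that the naming rule found, complex III was the most even in U251. The rule leaves out its subunit CYC1, whose U251 ratio of 0.56 (0.49 to 0.63) lay above those of all 8 members. In U251 all 8 members had an interval above 0 (30.9% of all genes tested), with log2 ratios between 0.10 and 0.41 and a median of 0.25. In U87 their ratios ran from -0.19 to 0.20 with a median of 0.08, 4 intervals above 0 and 1 below (15.7% and 28.0%). UQCRQ, a small subunit that binds cytochrome b, had the highest FPKM of the complex in each library. It stood at 150 (Control) and 195 FPKM (Bru) in U251, and at 165 and 180 FPKM in U87. Its ratios were 0.38 (0.32 to 0.44) and 0.12 (0.06 to 0.18). The core protein UQCRC2 had 0.27 (0.18 to 0.35) and 0.17 (0.10 to 0.23), and its partner UQCRC1 had 0.10 (0.04 to 0.16) and 0.03 (-0.02 to 0.09). The Rieske iron-sulfur protein UQCRFS1, which hands electrons on to cytochrome c1, had 0.13 (0.06 to 0.21) and -0.04 (-0.12 to 0.03). UQCRB had the highest ratio of the complex in U87, at 0.20 (0.15 to 0.26). UQCR11, the smallest subunit, had the highest ratio of the 8 members in U251 and the lowest in U87.

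Complex IV, cytochrome c oxidase, is the complex with the most tissue isoforms, and these lines used one isoform in each family. COX4I1 gave 100% of the FPKM of the COX4I pair in every library, and COX7B gave 100% of the COX7B pair. COX6A1 gave 99.6% or more of its pair, COX6B1 99.95% or more, COX8A 99.96% or more, and COX7A2 between 98.7% and 99.5%. The lung isoform COX4I2 and the testis isoform COX7B2 had 0 fragments in all 4 libraries, which allows up to 0.249 and 0.214 FPKM at the lowest depth with a floor of 3 fragments. The muscle isoforms COX6A2 and COX7A1 had 0 to 3 and 4 to 9 fragments, and the testis isoforms COX6B2 and COX8C had 1 to 5 and 0 to 1.

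Of the 11 tested genes of complex IV, 7 had an interval above 0 and 2 below 0 in U251 (30.9% and 35.9% of all genes tested). In U87 there were 5 and 1 (15.7% and 28.0%). The medians were 0.19 and 0.04. COX7B (chromosome X, 77899438 to 77907373, + strand), a small structural subunit, stood at 40.0 (Control) and 67.9 FPKM (Bru) in U251, and at 42.6 and 46.2 FPKM in U87. The U251 Bru library was above the other 3, with log2 ratios of 0.76 (0.69 to 0.83) in U251 and 0.12 (0.04 to 0.20) in U87. COX5A, COX6B1, COX5B and COX6A1 followed with ratios of 0.37 to 0.45 in U251 and -0.07 to 0.17 in U87. COX4I1, which is needed for the complex to form, stood at 43.7 and 47.5 FPKM in U251 and at 71.9 and 70.8 FPKM in U87, with ratios of 0.12 (0.06 to 0.18) and -0.02 (-0.07 to 0.03). COX6C went the other way in U251, from 41.4 to 33.9 FPKM, with a ratio of -0.29 (-0.37 to -0.20), while in U87 it stood at 55.8 and 53.5 FPKM, with -0.06 (-0.14 to 0.01). COX7A2 had -0.17 (-0.25 to -0.08) in U251 and 0.04 (-0.07 to 0.16) in U87. COX7A2L, which joins complexes III and IV in supercomplexes, had -0.05 (-0.17 to 0.07) and 0.12 (0.02 to 0.22).

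Complex V, the ATP synthase, had median ratios of 0.32 (U251) and 0.16 (U87) over 19 genes. The U87 median was 0.062 over its members that share under 10% of their 50-base stretches with another gene. Intervals lay above 0 for 16 genes and below 0 for 2 in U251 (30.9% and 35.9% of all genes tested). In U87 they did so for 12 and 2 genes (15.7% and 28.0%). In the catalytic head, the beta subunit ATP5F1B stood at 279 (Control) and 352 FPKM (Bru) in U251, and at 446 and 498 FPKM in U87, with ratios of 0.34 (0.30 to 0.37) and 0.16 (0.13 to 0.19). Its partner, the alpha subunit ATP5F1A, stood at 18.6 and 19.9 FPKM in U251 and at 53.2 and 53.7 FPKM in U87, with ratios of 0.10 (0.03 to 0.16) and 0.01 (-0.03 to 0.05). In the central stalk, the gamma subunit ATP5F1C stood at 80.8 and 76.0 FPKM in U251 and at 90.2 and 75.4 FPKM in U87 and was lower in Bru in both lines, with ratios of -0.09 (-0.16 to -0.02) and -0.26 (-0.33 to -0.19). The delta subunit ATP5F1D had 0.02 and 0.11, and the epsilon subunit ATP5F1E had 0.10 and 0.26, the only one of these 3 with an interval above 0 in both lines.

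The c ring, which turns as protons pass, is built from 1 mature protein that 3 genes encode. ATP5MC1 (chromosome 17, 48892765 to 48895871, + strand) stood at 19.1 (Control) and 34.6 FPKM (Bru) in U251, and at 31.1 and 40.3 FPKM in U87, with log2 ratios of 0.85 (0.74 to 0.97) and 0.37 (0.27 to 0.47). These were the highest ratios of complex V in each line. ATP5MC2 had 0.55 (0.47 to 0.63) and 0.18 (0.10 to 0.26), and ATP5MC3 had 0.25 (0.18 to 0.32) and -0.03 (-0.08 to 0.03). The order of the 3 genes by ratio was the same in both lines, and the share of ATP5MC1 in their summed FPKM went from 27.6% to 34.1% in U251 and from 29.04% to 33.5% in U87. The share of ATP5MC3 went from 35.0% to 28.5% and from 37.4% to 32.7%. ATP5MC2 kept between 33.5% and 37.5% in the 4 libraries.

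All 4 genes of the peripheral stalk, which holds the head still, had an interval above 0 in U251 (30.9% of all genes tested). Their ratios there ran from 0.15 (ATP5PF) to 0.74 (ATP5PO). In U87, 3 of 4 had an interval above 0 (15.7% of all genes tested). The 5 small membrane subunits ranged from 0.16 (ATP5MF) to 0.75 (ATP5ME) in U251 and from -0.18 to 0.37 in U87, with ATP5MF lowest and ATP5ME highest in both lines. Of the exon bases of ATP5ME, 61.6% overlap another gene, and 25.4% of those of ATP5PO overlap other genes, so that both levels are uncertain. ATP5IF1, the natural inhibitor of the enzyme, had 0.30 (0.22 to 0.39) in U251 and -0.03 (-0.11 to 0.05) in U87.

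**Figure D2:**
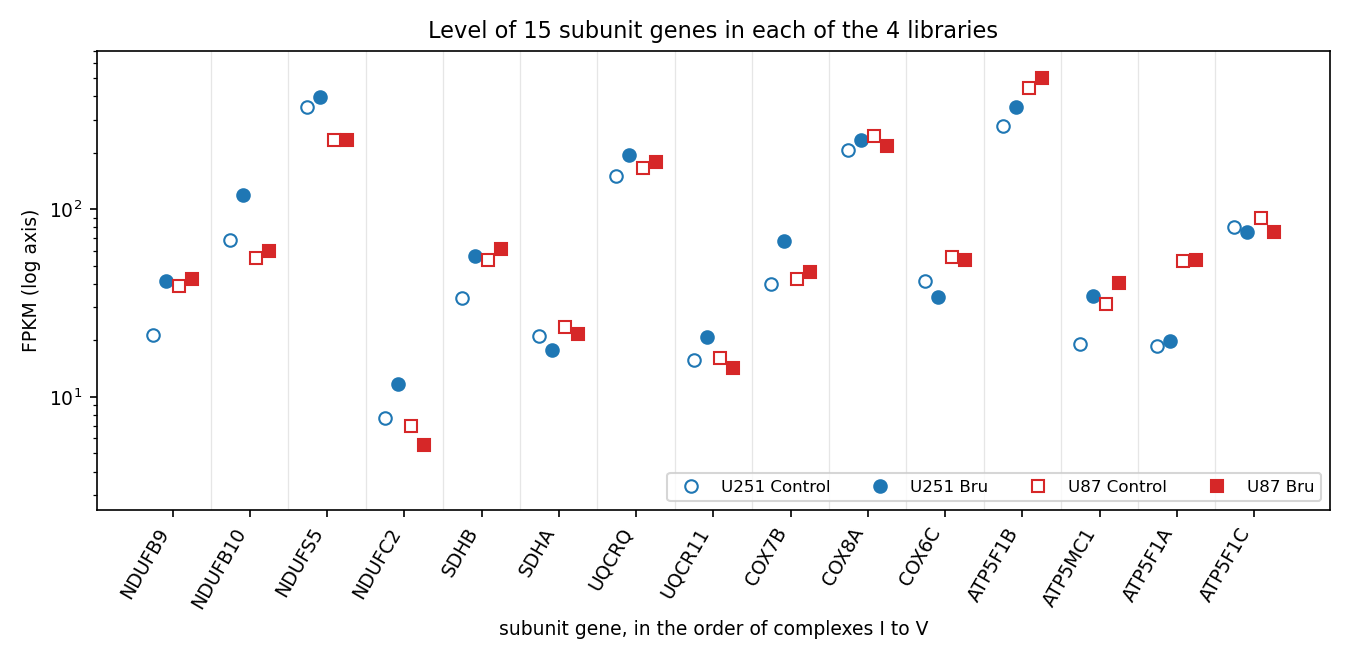
FPKM on a log axis (vertical) of 15 subunit genes in the order of complexes I to V (horizontal) in each of the 4 libraries; circles are U251, squares are U87, open symbols are Control and filled symbols are Bru. NDUFB9, SDHB and ATP5MC1 are lowest in U251 Control, SDHA and ATP5F1C are lower in Bru than in Control in both lines, and ATP5F1A separates the lines and not the treatments.

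Both lines were then set side by side, gene by gene, since their ratios share no library. A log2 ratio above 0 in both lines was found for 48 of 77 members (28.1% of all genes tested), and an interval above 0 in both for 30 (10.1% of all genes tested). These 30 were 12 genes of complex I, 1 of complex II (SDHB), 4 of complex III, 3 of complex IV and 10 of complex V. Intervals below 0 in both lines were found for NDUFA2, SDHA and ATP5F1C. In each line alone, intervals lay below 0 for 35.9% (U251) and 28.0% (U87) of all genes tested. The share of all genes below 0 in both lines is not given here. Across the 77 genes the ratios in U251 and in U87 had a Spearman correlation of 0.36, given as a description.

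The difference between the log2 ratio in U251 and that in U87 had a median of 0.18 over the 77 members, beside 0.01 over all genes tested, and was above 0 for 56 members (50.9% of all genes tested). Its counting interval lay above 0 for 46 members and below 0 for 9 (26.3% and 24.6% of all genes tested). NDUFC2, NDUFB9 and NDUFB10 had the largest differences, at 0.92 (0.64 to 1.23), 0.82 (0.71 to 0.93) and 0.66 (0.50 to 0.81). ATP5S, NDUFA5 and COX6C had the lowest, at -0.53 (-0.94 to -0.22), -0.24 (-0.38 to -0.10) and -0.23 (-0.34 to -0.11). ATP5S is named for a coupling factor of the ATP synthase.

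For 6 members, the intervals lay on opposite sides of 0 in the 2 lines. Higher in Bru in U251 and lower in U87 were NDUFC2, NDUFS7, UQCR11, COX8A and ATP5MF, or 5 of 77 members (3.20% of all genes tested). Lower in U251 and higher in U87 was ATP5S alone (1.95% of all genes tested). NDUFC2, an accessory subunit of the membrane arm, stood at 7.73 (Control) and 11.8 FPKM (Bru) in U251, and at 6.99 and 5.57 FPKM in U87. UQCR11 stood at 15.7 and 20.8 FPKM in U251 and at 16.2 and 14.2 FPKM in U87, with ratios of 0.41 (0.26 to 0.55) and -0.19 (-0.36 to -0.02). COX8A, the smallest subunit of complex IV, stood at 206 and 235 FPKM in U251 and at 246 and 217 FPKM in U87, with ratios of 0.19 (0.10 to 0.28) and -0.18 (-0.27 to -0.09). In NDUFC2 and UQCR11 the Control libraries lay closer together than the Bru libraries, and in COX8A they lay farther apart. Exons of other genes overlap 49.1% of the exon bases of NDUFS7, 34.5% of COX8A, 20.1% of ATP5S, 18.1% of NDUFC2, 10.9% of UQCR11 and 8.57% of ATP5MF. The part of these overlaps in the ratios was not tested.

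**Figure D3:**
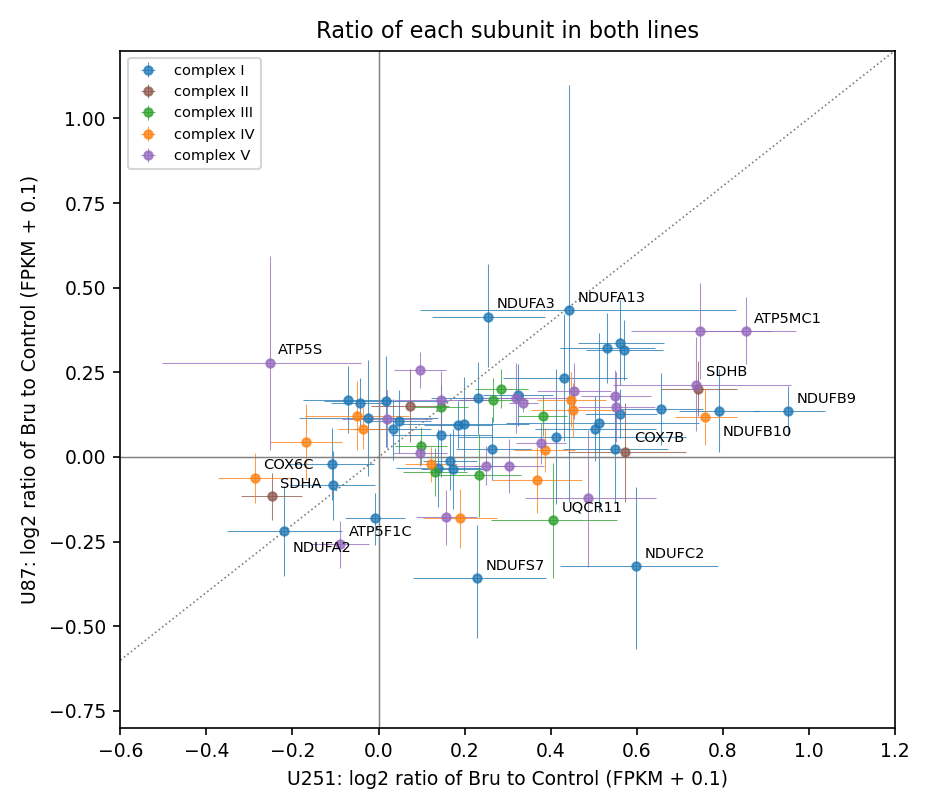
Bru to Control log2 ratio, on FPKM + 0.1, in U251 (horizontal) and U87 (vertical) for the 77 tested genes, colored by complex, with 95% counting intervals as thin lines and equal ratios as a dotted line. Most points lie right of 0 and below the dotted line, NDUFC2, NDUFS7 and UQCR11 lie in the lower right part, and SDHA, NDUFA2 and ATP5F1C lie below 0 on both axes.

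Before treatment, more members differed between the lines by over 0.5 than differed between Bru and Control. The log2 ratio of U87 Control to U251 Control had a median of 0.20 over the 77 members and -0.01 over all genes tested. It was above 0 for 52 members (49.6% of all genes tested), above 0.5 for 21 members and below -0.5 for 6 (27.9% and 29.8% of all genes tested; 14.5% were above 1 and 16.0% below -1), and its interval lay above 0 for 48 and below 0 for 18 (40.1% and 40.9% of all genes tested). By complex the medians were 0.02 for complex I, 0.20 for complex II, 0.25 for complex III, 0.43 for complex IV and 0.47 for complex V. This comparison shares its Control libraries with the Bru ratios, so that values of both are not independent. The order of levels over the 77 genes was close in both lines, with a Spearman correlation of 0.94 between the log2 FPKM of the Control libraries. NDUFS5, ATP5F1B, COX8A and NDUFB7 were the 4 members with the highest FPKM in each Control library, between 190 and 446.

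The largest differences between untreated lines lay in single subunits. ATP5F1A was higher in U87 Control with a log2 ratio of 1.51 (1.47 to 1.57), followed by ATP5PO of the peripheral stalk, from 4.63 to 13.2 FPKM, with 1.49 (1.32 to 1.70), and NDUFA8, from 42.0 to 113 FPKM, with 1.42 (1.298 to 1.55). Other genes overlap 25.4% of the exon bases of ATP5PO, and the part of this in its ratio was not tested. Lower in U87 Control were NDUFA13 with -1.18 (-1.82 to -0.75) and COX7A2, from 64.7 to 36.9 FPKM, with -0.81 (-0.91 to -0.71). COX7A2 thus stood against the direction of most other members.

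**Figure D4:**
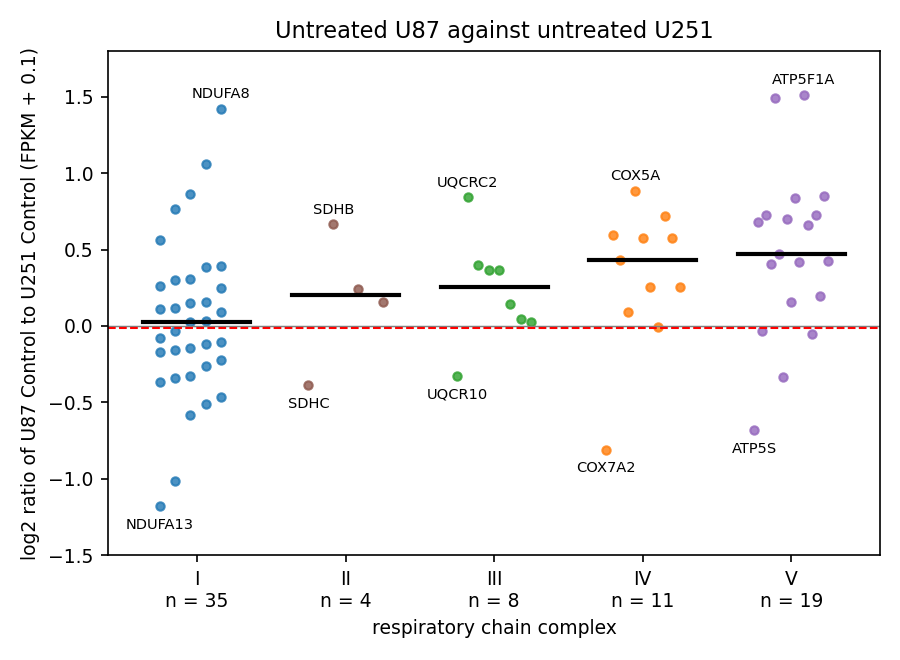
Log2 ratio of U87 Control to U251 Control on FPKM + 0.1 (vertical axis) for the 77 tested genes by complex (horizontal axis). Each point is 1 gene, black bars are the medians of a complex and the red dashed line is the median of all genes tested (-0.01); the medians run from 0.02 in complex I to 0.47 in complex V.

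The subunits encoded by mitochondrial DNA went the other way in U251. All 13 had an interval below 0 (35.9% of all genes tested), with log2 ratios between -0.62 (MT-ATP6) and -0.13 (MT-ND3) and a median of -0.46. In U87, 8 intervals lay above 0 and 4 below (15.7% and 28.0% of all genes tested), with a median of 0.15. Each of these genes held 2602 to 226589 fragments in a library, so that the intervals were narrow and even small differences excluded 0. MT-CO3, a core subunit of complex IV, stood at 4063 (Control) and 2765 FPKM (Bru) in U251, and at 5716 and 4865 FPKM in U87, and MT-ND1, the membrane subunit next to the coenzyme Q site, at 628 and 572 FPKM in U251 and at 901 and 1021 FPKM in U87. The U87 genes split by complex, with all 7 subunits of complex I and MT-CYB of complex III above 0 and the 3 subunits of complex IV and MT-ATP6 below 0.

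Summed over a complex, nuclear-encoded FPKM in U251 were 1.19-fold for complex I, 1.35-fold for complex II, 1.18-fold for complexes III and IV and 1.25-fold for complex V, while the mitochondrially encoded sums were 0.812-fold, 0.810-fold, 0.730-fold and 0.653-fold for complexes I, III, IV and V. The ratio of mitochondrially encoded to nuclear-encoded FPKM over all complexes went from 8.01 to 5.01 in U251 and from 8.95 to 8.51 in U87. Mitochondrially encoded genes took 3.01% and 2.43% of the fragments in U251, and 3.93% and 4.06% in U87. With FPKM rescaled to the fragments on all other genes, the median over the nuclear-encoded members was 0.33 in U251 and 0.15 in U87. That over all genes tested was 0.04 in U251. This rescaling also changed the library size. In U251 the size inside the deposited FPKM was 20974002 (Control) and 18533374 (Bru), against 21453561 and 17847910 fragments on genes. The values therefore mix both changes, and leaving out the mitochondrially encoded genes was not tested alone.

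**Figure D5:**
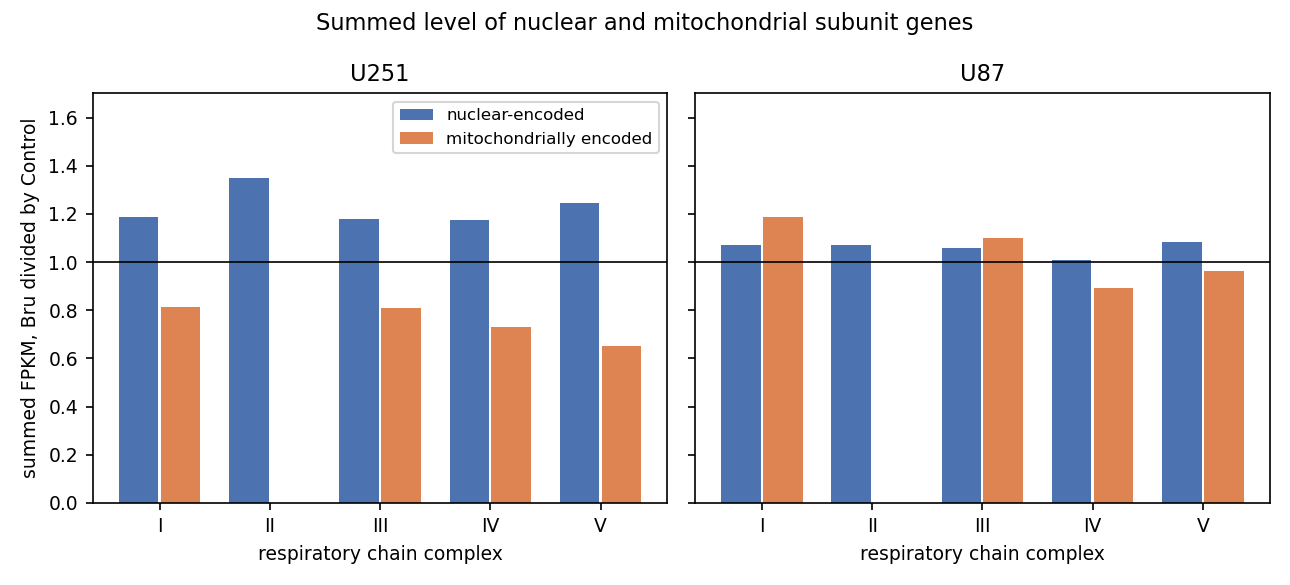
Summed FPKM in Bru divided by summed FPKM in Control (vertical axis, from 0, with a line at 1) for nuclear-encoded and mitochondrially encoded subunits of each complex (horizontal axis), in U251 (left) and U87 (right), 1 library per condition. In U251 every nuclear bar lies above 1 and every mitochondrial bar below 1; complex II has no mitochondrial gene.

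Other genes of the pathway were read from lists chosen by function. Of the subunits that the naming rule leaves out, 3 were tested, and all had an interval above 0 in both lines (10.1% of all genes tested). Cytochrome c1 (CYC1), the catalytic heme protein of complex III, went from 75.6 to 111 FPKM in U251 and from 98.2 to 106 FPKM in U87, with log2 ratios of 0.56 (0.49 to 0.63) and 0.11 (0.04 to 0.17). Cytochrome c (CYCS), the carrier between complexes III and IV, had 0.50 (0.45 to 0.55) and 0.05 (0.01 to 0.10). NDUFAB1, the acyl carrier protein of complex I, had 0.19 (0.08 to 0.30) and 0.29 (0.20 to 0.39).

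Assembly factors build the complexes and are not part of them. Over 54 tested factors the medians were 0.32 (U251) and 0.07 (U87), with 33 intervals above 0 and 10 below in U251 (30.9% and 35.9% of all genes tested) and 18 and 7 in U87 (15.7% and 28.0%). The 18 factors of complex I had medians of 0.46 and 0.21. By the mean of both lines NDUFAF2 was the highest of them, and it stood at 33.9 (Control) and 84.0 FPKM (Bru) in U251, and at 49.7 and 59.7 FPKM in U87, with 1.31 (1.18 to 1.44) in U251 and 0.26 (0.13 to 0.39) in U87. COA1 was lowest in each line, with -0.25 and -0.06. In complex IV, COX19, a small protein of copper delivery, went from 4.21 to 12.4 FPKM in U251, a ratio of 1.53 (1.40 to 1.71), and from 3.84 to 3.72 FPKM in U87, a ratio of -0.05 (-0.26 to 0.16), while PET117 was lowest by the mean of both lines, at -0.36 and -0.82 with both intervals spanning 0. In U251 alone PET100 was lowest, at -0.65 (-1.27 to -0.14), and it had 0.43 (-0.06 to 0.98) in U87. In complex II, SDHAF4 had -0.35 (-0.69 to -0.02) and -0.82 (-1.68 to -0.12) and SDHAF3 had 0.76 (0.45 to 1.11) and -0.13 (-0.38 to 0.11). SDHAF2 had 0.03 and 0.13 with both intervals spanning 0, and SDHAF1 had 0.34 (0.13 to 0.56) and -0.16 (-0.41 to 0.08). In complex III, LYRM7, which helps insert the Rieske protein, had 0.39 and 0.38, and TTC19 had -0.43 and -0.22. The 3 factors of complex V had medians of -0.12 and -0.09, with ATPAF1 at -0.12 and -0.13 and ATPAF2 at -0.12 and 0.18.

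Of the 12 tested regulators of these genes, 3 had an interval above 0 and 2 below 0 in U251 (30.9% and 35.9% of all genes tested), and 3 and 1 in U87 (15.7% and 28.0%), with medians of -0.01 and 0.08. NRF1 stood at 6.59 (Control) and 5.14 FPKM (Bru) in U251, and at 4.29 and 3.70 FPKM in U87, with ratios of -0.35 (-0.55 to -0.17) and -0.21 (-0.45 to 0.03). GABPA, YY1 and TFAM had intervals that spanned 0 in both lines. PPARGC1A, a coactivator of mitochondrial genes, stood at 0.434 and 1.65 FPKM in U251 and at 1.69 and 1.88 FPKM in U87, with ratios of 1.71 (1.60 to 2.26) and 0.15 (-0.06 to 0.38), and was thus low in U251 Control only.

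Short genes as a whole were higher in the U251 Bru library, and many subunit genes are short. In U251, protein-coding genes with up to 1500 exon bases had a median of 0.15, against 0.37 for the 22 members of that length. Between 1500 and 3000 bases the medians were 0.07 and 0.32 (20 members), between 3000 and 6000 bases -0.03 and 0.18 (23 members), and above 6000 bases -0.09 and 0.15 (12 members). In U87 the protein-coding medians were 0.02, -0.03, -0.06 and -0.06 in the same bins, and the member medians were 0.11, 0.11, 0.12 and 0.04. The member medians lay above those of all protein-coding genes tested, which include the members, in each bin and line. The part of length in the ratios was not tested. Ribosomal protein genes, also short and abundant, had higher medians in U251, 0.69 over 79 cytosolic and 0.51 over 76 mitochondrial genes, and 0.32 and 0.12 in U87.

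The 9 members with a mean FPKM under 1 stayed out of the counts. Beside the 6 isoforms of complex IV, they were NDUFA7, NDUFV2 and ATP5MGL. NDUFV2, an iron-sulfur core subunit of complex I, stood at 1.16 and 1.43 FPKM in U251 and at 0.490 and 0.699 FPKM in U87, on 66, 72, 24 and 33 fragments, below all other core subunits. NDUFA7 had 19, 25, 12 and 30 fragments. The just tested NDUFA13 stood at 2.02 and 2.79 FPKM in U251 and at 0.838 and 1.17 FPKM in U87. Other annotated genes overlap exons of each of these 3, with 28.4% of the exon bases of NDUFV2 and 21.0% of those of NDUFA13, and the part of this in their levels was not tested. ATP5MGL, a gene like that of subunit g, had 2 fragments in U251 Bru and 0 in the other libraries.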

How the data were processed

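Libraries of U251 and U87 cells, each as Control and after 48 h of Bru, were prepared with a NEB Next Ultra RNA kit and read from both ends. The values deposited by the authors are FPKM for every gene. Submitters' processing notes name HISAT2 2.0.5, StringTie 1.3.3b and featureCounts 1.5.0-p3, and a build (hg18) that the files go against: coordinates and exon lengths of all 58735 genes were those of GENCODE release 29 on GRCh38. Lengths were the union of annotated exons. The strand setting is not given in the sources used here.

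FPKM multiplied by length was a whole multiple of 1 step for 100% of values (tolerance 0.01), which gave back the fragments per gene. Ratios used log2(FPKM + 0.1) and genes averaging 1 FPKM or more, and the cutoff was 0.5. Intervals are exact Clopper-Pearson (for differences between lines, normal) and cover counting error only, since fragments carry no molecular identifiers.

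Members, lists and tests were chosen with earlier results of these data known. Genes were named by rule: the highest and lowest of each complex and list, core subunits, isoform families, members with opposite ratios, the 3 most different between lines and those under 1 FPKM. Other genes were added after their values were seen, and part of the genes that the rule selects are not reported here. Recovery and intervals were tested on simulated data. Alternatives were other pseudocounts, filters, scalings, backgrounds and members without shared or overlapped sequence. Python 3.11.15, pandas 2.3.3 and scipy 1.17.1 were used.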

Additional observations from a re-analysis of the deposited data

Results flagged for a closer look

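For 6 members the Bru and Control libraries differed in opposite directions in U251 and U87, beyond the counting error of each ratio. The log2 ratio in U251 minus that in U87 was 0.922 for NDUFC2, 0.592 for UQCR11, 0.588 for NDUFS7, 0.371 for COX8A, 0.335 for ATP5MF and -0.532 for ATP5S. With 1 library per condition the difference between lines was not tested against replicate spread.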

How the results depend on the processing

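No paired analysis was possible because each condition had 1 library and the labels carry no replicate numbers, and no library could be left out for the same reason. Of 259 values recomputed under other settings, 250 stayed close to the first value and 9 moved. No median over the members or over a complex changed sign, but the median over all genes tested lay near 0 and took either sign, from -0.05 to 0.05 in U251, from -0.05 to 0.01 in U87 and from -0.08 to 0.06 between the untreated lines. The median log2 ratio of the members ran from 0.23 to 0.34 in U251, from 0.096 to 0.17 in U87 and from 0.13 to 0.27 between the untreated lines. The count of members above 0.5 in U251, 19 of 77 at first, was 10 of 48 with members that share under 10% of their 50-base stretches with another gene, 9 of 41 with members whose exons other genes overlap by under 5%, an alternative added after the data were seen, and 0 at a cutoff of 1. In U87, 3 members were above and 2 below the cutoff without a filter, and 2 above and 1 below with a minimum mean FPKM of 0.1, all of them genes with 30 fragments or fewer. With members of little shared sequence, the median of complex II in U251 was 0.072, and that of complex V in U87 was 0.062. Reads on genes that overlap or resemble others, and levels under 1 FPKM, limit what the depth shows.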

Other observations

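Enzymes that feed the chain were read in the same way. Of the 13 enzymes of the tricarboxylic acid cycle tested, 7 had an interval above 0 in each line (30.9% of all genes tested in U251 and 15.7% in U87), and 2 in U251 and 3 in U87 had one below 0 (35.9% and 28.0%), with medians of 0.11 and 0.16. IDH3B, a subunit of the NAD-dependent isocitrate dehydrogenase, stood at 28.2 (Control) and 46.6 FPKM (Bru) in U251, and at 28.1 and 32.1 FPKM in U87, with log2 ratios of 0.72 (0.63 to 0.82) and 0.19 (0.08 to 0.30). OGDH, of the 2-oxoglutarate dehydrogenase complex, stood at 28.1 and 20.9 FPKM in U251 and at 52.7 and 41.7 FPKM in U87 and was lower in Bru in both lines, with -0.42 (-0.51 to -0.35) and -0.34 (-0.40 to -0.28).

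Of the 13 genes of coenzyme Q synthesis and transport tested, 5 had an interval above 0 and 4 below 0 in U251 (30.9% and 35.9% of all genes tested), and 5 and 0 in U87 (15.7% and 28.0%), with medians of 0.08 and 0.11. COQ5, a methyltransferase of the pathway, went from 6.63 to 14.9 FPKM in U251 and from 14.8 to 18.0 FPKM in U87, with ratios of 1.16 (0.98 to 1.36) and 0.28 (0.13 to 0.43). COQ10A, a coenzyme Q-binding protein, had -0.38 (-0.70 to -0.10) and -0.14 (-0.44 to 0.15).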
